A study of Mus musculus with 10 samples.

Results

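The genes described here encode the surfactant proteins *Sftpa1*, *Sftpb*, *Sftpc* and *Sftpd*, the protease *Napsa*, the lipid transporter *Abca3* and the phosphate transporter *Slc34a2*. Members were the probe sets whose platform annotation names 1 of these symbols and no other gene. All 7 genes were found, out of 17813 genes measured, and each rests on 1 probe set. Their RNA was measured in cells from the distal tips of the mouse lung, with 5 Affymetrix arrays for each of 2 stages, E11.5 and E17.5 (embryonic days). The embryos of both stages came from timed matings and carry *Id2-CreER* and *Rosa26R-fGFP*, on a C57Bl/6J background. E11.5 tips were microdissected by hand after dispase, and the sources name no tamoxifen for them. At E17.5, lungs were dissociated with trypsin and GFP+ cells were sorted, after tamoxifen at 150 micrograms per gram body weight of the mother at E16.5. The GFP label is heritable and is switched on in cells in which the *Id2* gene drives CreER. The authors describe the sorted cells as those of the tips plus a few direct descendants. Markers of endothelial cells, macrophages and club cells were also measured on the E17.5 arrays, as given below. Age, tamoxifen and isolation cannot be told apart in this design. The labels speak of biological replicates but name no litters, so p-values cover only the spread between these samples, which may be technical.

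Pulmonary surfactant is a film of lipid and protein that lowers surface tension in the alveoli and is made by alveolar type 2 (AT2) cells. SFTPB and SFTPC are small hydrophobic proteins that are cut from larger precursors and stored with lipid in lamellar bodies, whereas SFTPA1 and SFTPD are secreted collectins, lectins of innate defence. NAPSA is an aspartic protease that helps to cut the SFTPB precursor, ABCA3 pumps phospholipid into lamellar bodies, and SLC34A2 takes up phosphate with sodium. Club cells of the airway also make several of the surfactant proteins.

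The 7 genes were all higher at E17.5 than at E11.5, and the measured rise ran from 5.83-fold for *Sftpc* to 612-fold for *Slc34a2*. The E11.5 signal of *Slc34a2* lay mostly below the level of silent genes, and its rise was 455-fold with signals held at that level. For 4 of the 7 genes, *Sftpa1*, *Sftpb*, *Sftpc* and *Abca3*, the signal was above the level of silent genes on every E11.5 array, as it was for 74.7% of all genes. *Sftpd*, *Napsa* and *Slc34a2* lay around the silent level at E11.5. The comparison used limma over all genes, with p-values adjusted by Benjamini-Hochberg and a threshold of 0.05. By this rule 36.9% of all genes were higher and 31.5% lower at E17.5, so the calls alone do not set these genes apart. The median log2 fold change of the 7 genes was 6.42, and that of all genes was 0.03. For each of the 7 genes every E17.5 array lay above every E11.5 array, which was so for 32.3% of all genes.

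The start sites of the genes give the sequence context of the rise. The RefSeq promoter table of build GRCm38.p6 held 4 of the 7 genes, with 250 bases before to 50 bases after each start site, and *Sftpc*, *Sftpd* and *Napsa* were not among them. Below are the promoters that held a match to the motifs searched, on the plus strand, 5′ to 3′, with matched bases in capitals.
Sftpb, chr6:72304360-72304659: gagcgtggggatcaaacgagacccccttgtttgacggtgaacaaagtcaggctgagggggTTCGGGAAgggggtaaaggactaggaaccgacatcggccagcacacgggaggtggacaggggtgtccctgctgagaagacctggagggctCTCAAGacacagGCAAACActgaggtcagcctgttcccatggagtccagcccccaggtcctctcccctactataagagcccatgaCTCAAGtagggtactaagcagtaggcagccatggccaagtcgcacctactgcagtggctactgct
Sftpa1, chr14:41131538-41131837: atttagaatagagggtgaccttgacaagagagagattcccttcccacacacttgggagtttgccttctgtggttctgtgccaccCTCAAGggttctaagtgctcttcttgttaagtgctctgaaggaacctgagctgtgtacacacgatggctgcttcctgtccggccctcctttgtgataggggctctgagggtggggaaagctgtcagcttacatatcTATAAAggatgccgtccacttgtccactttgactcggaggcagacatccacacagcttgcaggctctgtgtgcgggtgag
Slc34a2, chr5:53049103-53049402: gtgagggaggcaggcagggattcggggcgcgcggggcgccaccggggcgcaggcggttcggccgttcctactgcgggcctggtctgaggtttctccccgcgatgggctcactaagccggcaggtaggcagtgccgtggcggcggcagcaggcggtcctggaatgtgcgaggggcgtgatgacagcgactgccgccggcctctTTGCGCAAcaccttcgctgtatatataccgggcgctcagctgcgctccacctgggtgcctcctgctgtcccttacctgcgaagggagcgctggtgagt

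Both strands were searched, and positions are counted from 0 at the start site. The core CTCAAG of NKX2-1, the transcription factor of lung epithelium, stood at -100 to -95 and at -15 to -10 in *Sftpb* and at -166 to -161 in *Sftpa1*. Of all 32851 promoters, 15.9% held this core. The forkhead core TGTTTNC was found in *Sftpb* on the minus strand at -88 to -82, close to the first CTCAAG, and 20.5% of all promoters held it. The C/EBP motif TTNNGNAA was found in *Slc34a2* at -48 to -41, where it matches on both strands over the same bases, and in *Sftpb* at -190 to -183. It stood in 40.7% of all promoters. *Sftpa1* had a TATAAA box at -30 to -25, found in 13.6% of promoters. The STAT palindrome TTCNNNGAA, the GATA core AGATAA and the palindrome of the glucocorticoid receptor (GR) were not in these 4 windows, and 8.3%, 11.2% and 0.475% of all promoters held them. *Abca3* had no match to any motif searched. These are matches of letters in a short window. The bases G and C made up 69.7% of the *Abca3* window, 68.7% of *Slc34a2*, 58.3% of *Sftpb* and 52% of *Sftpa1*, with a median of 52.7% over all promoters.

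**Figure D1:**
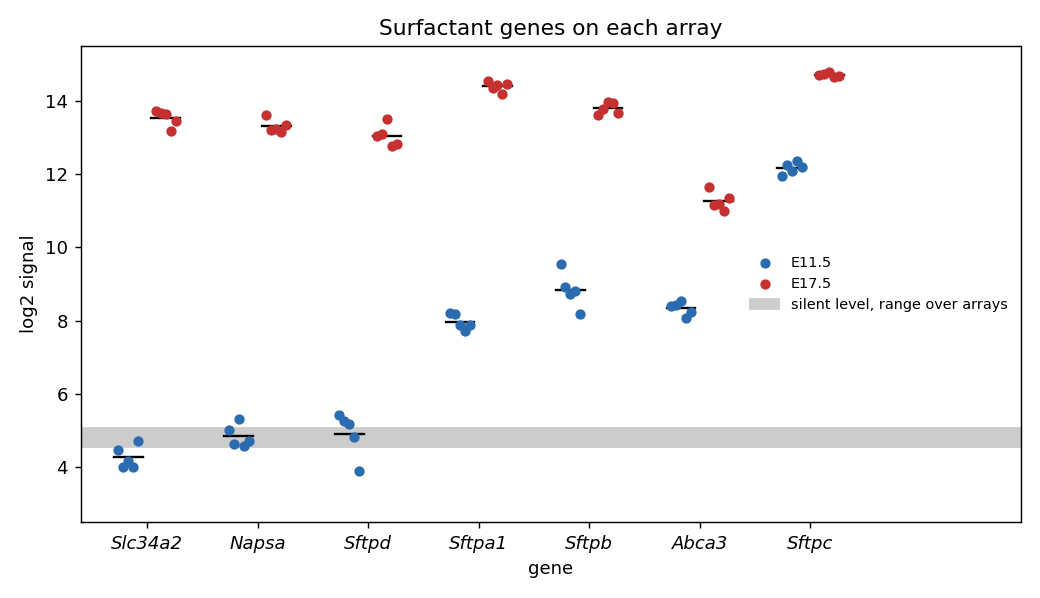
Log2 signal (y axis) of the 7 surfactant genes by array, in blue for E11.5 and red for E17.5 (5 points each, bar at their mean), ordered by the size of the rise. The grey band is the range over arrays, 4.55 to 5.08, of the silent level, and the E11.5 arrays of *Slc34a2*, *Napsa* and *Sftpd* lie around it.

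The gene with the smallest rise was *Sftpc*, which encodes the hydrophobic surfactant protein C and is known as an early marker of distal lung epithelium. Its log2 signals at E11.5 were 11.95, 12.25, 12.10, 12.35 and 12.20 on replicates 1 to 5. At E17.5 they were 14.72, 14.74, 14.78, 14.66 and 14.67. The stages were 2.31 apart at their nearest arrays, and the E17.5 arrays spread less than the E11.5 arrays (SD 0.05 against 0.15, n = 5 each). The rise was 2.54 on the log2 scale with a standard error of 0.09 (adjusted p = 1e-10, limma). On the E17.5 arrays this signal was only 0.21 to 0.31 under the highest signal of any probe set on the same array, which was 14.94 to 14.99. Whether the top of the scale limits its rise was not tested.

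*Sftpb*, which encodes surfactant protein B, needed for the surface film and for the packing of lamellar bodies, had E11.5 signals of 9.55, 8.91, 8.73, 8.81 and 8.18. Its E17.5 signals were 13.62, 13.77, 13.98, 13.93 and 13.67. It was thus measured in every E11.5 sample, with replicate 1 the highest and replicate 5 the lowest, and all E17.5 samples were at least 4.07 above them. The rise was 31.1-fold (95% interval 22.8 to 42.3, adjusted p = 4.5e-10 from limma).

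*Sftpa1*, the collectin that is the most abundant protein of surfactant, had signals of 8.22, 8.19, 7.87, 7.71 and 7.89 at E11.5. At E17.5 it had 14.55, 14.35, 14.44, 14.19 and 14.45. The arrays of a stage lay close together, and 5.97 separated the stages. The rise of *Sftpa1* was 85.5-fold (95% interval 71.6 to 102, adjusted p = 7.7e-13 from limma). Its E17.5 signals were 0.44 to 0.75 under the highest signal of their arrays. Its probe set is of the kind that can match several transcripts of the gene.

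The other collectin, *Sftpd*, went from signals of 5.42, 5.25, 5.19, 4.84 and 3.89 at E11.5 to 13.05, 13.09, 13.50, 12.78 and 12.83 at E17.5. Replicate 5 was the lowest E11.5 array, and the E11.5 arrays spread more for *Sftpd* (SD 0.61, n = 5) than for any other of the 7 genes. The rise was 281-fold (95% interval 189 to 418, adjusted p = 5.1e-11 from limma). *Sftpd* and *Sftpa1* belong to the same family, and the measured rise of *Sftpd* was larger by 1.72 on the log2 scale (standard error 0.27). As the E11.5 signal of *Sftpd* lay around the silent level, its fold depends on signal that may be background. With E11.5 signals held at no less than that level it was 257-fold, an estimate without an interval, against 85.5-fold for *Sftpa1*.

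*Napsa*, the aspartic protease, had E11.5 signals of 5.02, 4.63, 5.32, 4.59 and 4.71 and E17.5 signals of 13.62, 13.21, 13.23, 13.14 and 13.33. No E17.5 array came within 7.82 of an E11.5 array. The rise was 350-fold (95% interval 278 to 441, adjusted p = 6.9e-13 from limma).

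*Abca3*, the lipid pump of the lamellar body membrane, had signals of 8.40, 8.42, 8.54, 8.08 and 8.24 at E11.5 and 11.64, 11.15, 11.19, 11 and 11.34 at E17.5. Its E17.5 signals were 3.34 to 3.95 under the highest of their arrays, so this small rise was measured far from the top of the scale. *Abca3* rose 7.62-fold (95% interval 6.24 to 9.29, adjusted p = 9.7e-10 from limma).

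*Slc34a2*, the sodium phosphate cotransporter of the AT2 cell surface, had signals of 4.46, 4.02, 4.18, 4.01 and 4.71 at E11.5. At E17.5 it had 13.73, 13.67, 13.64, 13.19 and 13.44, which is 8.47 or more above every E11.5 array. The measured rise was 9.26 on the log2 scale with a standard error of 0.16 (limma's adjusted p = 5.3e-13), and it ranked at 1 among the 17813 genes. That place rests on E11.5 signals mostly below the silent level. With every signal held at no less than the silent level of its array, the rise of *Slc34a2* was 8.83, behind *Lyz1* at 8.90. By the measured rise, *Napsa* ranked at 5 and *Sftpd* at 9. *Sftpa1* ranked at 52, *Sftpb* at 201, *Abca3* at 1220 and *Sftpc* at 1643, so that 9.22% of genes rose more than *Sftpc*.

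The deposited table holds no detection calls, and the silent level was therefore set from 39 olfactory receptor genes, taken as not expressed in lung. On each array it was the signal that 95% of these genes did not exceed, which gave 4.55 to 4.77 for the E11.5 arrays and 4.58 to 5.08 for those of E17.5. A gene was read as above it where all 5 arrays of a stage were, which was so for 74.7% of all genes at E11.5 and 72% at E17.5. Probe sets differ in how strongly they bind, so this level is a threshold and no proof of silence.

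At E11.5, *Sftpc* lay 7.31 to 7.66 above the silent level of its array, *Sftpb* 3.63 to 4.91, *Abca3* 3.39 to 3.77 and *Sftpa1* 3.02 to 3.58. *Sftpd* was above the level on 4 of 5 E11.5 arrays, at most by 0.78, and *Napsa* on 3, at most by 0.55. *Slc34a2* was above it on 1 array, by 0.16. At E17.5 all 7 genes were above the level on every array, by 6.11 or more. The genes already measured at E11.5 thus included both precursors of the hydrophobic proteins and the lipid pump, and 1 of the 2 collectins. The count of 4 genes at E11.5 was the same with a stricter level (the 99th percentile), with 38 vomeronasal and taste receptor genes in place of olfactory receptors, and after quantile normalization. Without E11.5 replicate 5 it was 5, as *Sftpd* passed on the other 4 arrays.

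For the genes at the silent level, the fold depends on signal that may be background. With each E11.5 array taken at no less than its silent level, *Slc34a2* rose 455-fold, *Napsa* 342-fold and *Sftpd* 257-fold. These are estimates that depend on the choice of the silent level, and they carry no interval. Each of them lies above the measured fold of *Sftpa1*, *Sftpb*, *Abca3* and *Sftpc*.

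**Figure D2:**
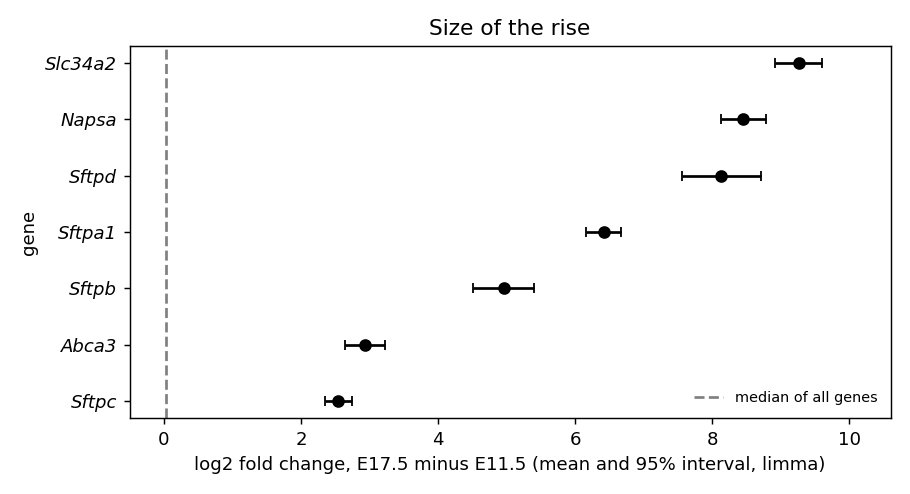
Log2 fold change from E11.5 to E17.5 (x axis) of each surfactant gene (y axis), with its 95% interval from limma, 5 arrays per stage. The dashed line is the median of all genes, 0.03, and the genes run from *Slc34a2* at 9.26 to *Sftpc* at 2.54.

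The rises were unequal. For each pair of genes, the difference of their log2 signals within an array was compared between the stages with a two-sided exact permutation test over the 10 arrays, whose smallest possible p is 0.00794. Of 21 pairs, 18 differed in the size of the rise (adjusted p = 0.00926 over the 21 pairs in an exact permutation test, for each of them). Pairs of other genes were not counted in this way, so the count does not set the surfactant genes apart. Ordered by the rise, *Sftpa1* rose more than *Sftpb* by 1.46 (standard error 0.21), and *Sftpb* more than *Abca3* by 2.03 (standard error 0.27). Neighbours that did not differ beyond their spread were *Napsa* and *Sftpd* (difference 0.32, standard error 0.29, adjusted p = 0.31 in the exact permutation test). *Abca3* and *Sftpc* were apart by 0.39 (standard error 0.17, adjusted p = 0.0833 in the same exact test). *Sftpd* and *Slc34a2* missed the threshold as well (difference -1.12, standard error 0.38, adjusted p = 0.0526 in the exact permutation test), which does not show that they rose alike. Both of these genes and *Napsa* lay around or below the silent level at E11.5, so differences among the 3 depend on signal that may be background. The measured rise of *Slc34a2* was larger than that of *Napsa* by 0.81 (standard error 0.20). With signals held at the silent level, *Napsa* minus *Slc34a2* was -0.41 (standard error 0.15) and *Sftpd* minus *Slc34a2* -0.83 (standard error 0.19, adjusted p = 0.0175 in the exact permutation test), and 19 of 21 pairs then differed. These differences depend on the choice of the silent level, and they set no order among the 3 genes. That setting was chosen after seeing the data. The genes near the silent level at E11.5 are those with the largest rises, and the gene nearest to the top of the scale at E17.5 has the smallest. *Sftpa1*, 0.44 to 0.75 under the top, rose 85.5-fold, and *Abca3*, 3.34 to 3.95 under it, rose 7.62-fold. A part of the ends of the scale in the order of the rises was not tested.

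Among the E17.5 arrays the genes did not all vary in the same way. Replicate 4 was the lowest array for 6 of the 7 genes, by up to 0.35 under the stage mean (*Slc34a2*), but for *Sftpb* it lay 0.14 above the mean and replicate 1 was the lowest. Replicate 1 was the highest for *Sftpa1*, *Napsa*, *Abca3* and *Slc34a2*, and replicate 3 for *Sftpb*, *Sftpc* and *Sftpd*. *Napsa*, *Abca3* and *Sftpa1* put the 5 arrays in the same order. The summed signal of 13 club cell markers was also lowest on replicate 4 (15.60 on the log2 scale) and highest on replicate 3 (16.25), as for *Sftpd*. The summed signals of 19 AT2 markers (17.11 against 17.33 or more) and 22 macrophage markers (14.57 against 14.92 to 15.44) were lowest there too. So were those of 15 endothelial markers (13.37) and 9 ciliated cell markers (12.66). *Lyz2* is in both the AT2 and the macrophage list. Tip and erythroid markers were lowest on replicate 2, alveolar type 1 markers and epithelial genes on replicate 3, and mesenchymal markers on replicate 1. Neuroendocrine markers were highest on replicate 4 (11.10). The part of these cells in the spread of the surfactant genes was not tested. For 6 of the 7 genes the SD was smaller at E17.5 than at E11.5, the exception being *Abca3* (0.25 against 0.18).

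**Figure D3:**
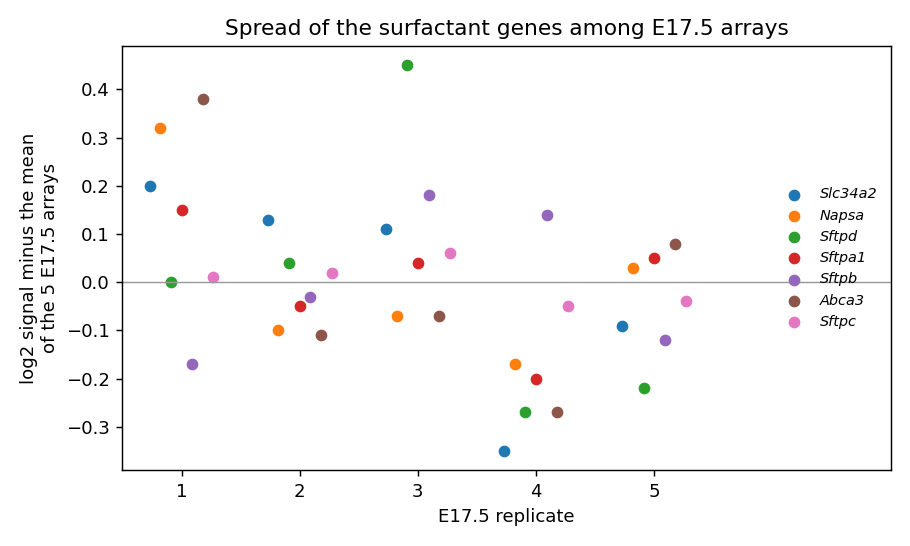
Log2 signal of each surfactant gene minus its mean over the 5 E17.5 arrays (y axis) by E17.5 replicate (x axis). On replicate 4 all genes except *Sftpb* lie below 0, and the widest deviation is *Sftpd* on replicate 3 at 0.45.

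Markers of the cells that could carry these genes were compared in the same samples, where 36.9% of all genes were higher and 31.5% lower at E17.5. Among 19 other AT2 markers, 17 rose and 2 fell (median log2 fold change 4.16). *Lyz1*, which encodes a lysozyme of mouse AT2 cells, rose by 8.90 on the log2 scale, the fatty acid receptor *Cd36* by 8.11, *Lcn2*, which encodes an iron-scavenging lipocalin, by 7.62 and *Lyz2* by 7.53. The lower ones were *Etv5*, a target of FGF signalling in tips, which fell by 1.35, and *Lpcat1*, an enzyme of surfactant phosphatidylcholine synthesis, which fell by 4.73 to a signal of 3.17 on its 1 probe set. That signal lay below the silent level of the E17.5 arrays (4.58 to 5.08) and may be background. The authors report LPCAT1 protein in tip cells from E16.5, and why this probe set differs was not tested. Of 13 club cell markers, 10 were higher and 2 lower, with *Scgb1a1* up by 8.97, *Sec14l3* by 8.55 and *Scgb3a2* by 8.34, and with *Cckar* and the airway factor *Sox2* lower (-1.14 and -4.43). The summed log2 signal of the club cell markers ranged from 13.80 to 14.10 over the E11.5 arrays and from 15.60 to 16.25 over the E17.5 arrays. At E11.5 *Cd36* (4.16), *Lcn2* (4.25), *Scgb1a1* (4.36) and *Sec14l3* (4.40) lay around or below the silent level. The sizes of their rises thus depend on signal that may be background. Among 22 markers of macrophages or monocytes, 19 rose and *Cx3cr1* fell, with summed log2 signals of 10.38 to 11.25 and then 14.57 to 15.44. This list shares *Lyz2* with the AT2 markers, and *Lyz2* had its highest mean signal at E17.5 (13.65, next *Ctss* at 12.07), so it weighs most in that sum. Of 13 alveolar type 1 markers 12 were higher, and of 15 endothelial markers 13. Of 9 ciliated cell markers 7 were higher and 1 lower, with summed log2 signals of 10.40 to 10.48 before and 12.66 to 13.52 after. In bulk samples, a change in the share of cells of a type and a change of RNA per cell cannot be told apart, so the part of AT2, club and other cells in the rise of the surfactant genes was not tested. Of 12 tip markers, 5 were higher and 4 lower (3 and 6 after quantile normalization). Measured at both stages were *Sox9* (9.60 and 9.58, called lower after quantile normalization), *Nkx2-1* at 9.42 and 9.52 and *Id2* at 10.69 and 12.79, and *Epcam* was at 11.43 and 13.34. *Shh* fell by 3.47, *Spry2* by 2.79, *Etv4* by 1.87 and *Etv5* by 1.35, and *Lin28b* (2.96 and 2.88) lay below the silent level at both stages. Of 16 mesenchymal markers 7 were higher and 5 lower, and of 8 erythroid genes 1 was higher and 4 were lower. The mesenchymal and tip counts were near the shares of all genes. Embryonic globins such as *Hbb-y* (12.62 at E11.5, 4.79 at E17.5) were on the E11.5 arrays.

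Other genes of surfactant handling rose more often than they fell, beside 36.9% higher and 31.5% lower of all genes. Of 30 measured genes of precursor cleavage, lamellar bodies, secretion and reuptake, 21 rose and 2 fell, and their median log2 fold change was 1.34 (20, 5 and 1.07 after quantile normalization). *Ctsh*, a cathepsin that also cuts the precursors of SFTPB and SFTPC, rose 128-fold (95% interval 109 to 152, adjusted p = 4.3e-13 from limma). *Nedd4l*, a ubiquitin ligase that acts on the epithelial sodium channel and on SFTPC sorting, rose by 5.70, and *Adgrf5*, a receptor that restrains the surfactant pool, by 5.21. *Slc7a7*, an amino acid transporter, rose by 4.29. The lower ones were *Dnajc10*, an endoplasmic reticulum (ER) chaperone for misfolded SFTPC, which fell by 0.39, and *Vps33b*, a vesicle sorting gene, which fell by 0.21.

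Of 28 transcription factors that act on surfactant genes, 12 rose and 9 fell around a median log2 fold change of 0.01. These shares are near the 36.9% higher and 31.5% lower of all genes, with a median of 0.03, and quantile normalization gave 10 higher and 13 lower. *Elf5* rose by 5.00, *Cebpd* by 4.77, *Cebpb* by 4.30 and *Cebpa* by 2.89 on the log2 scale, the last 3 being C/EBP factors. The C/EBP motif stood in the *Slc34a2* and *Sftpb* windows, but also in 40.7% of all promoters. A part of these factors in the rise of the surfactant genes was not tested. *Nfib* fell by 2.27, *Nfia* by 1.71, *Etv5* by 1.35 and *Stat3* by 1.26. The E17.5 signals of *Stat3* (4.62 to 5.20) lay around the silent level, so the size of its fall depends on signal that may be background. The authors report phosphorylated STAT3 protein in tip cells from E16.5, weakly at first. Why this probe set gave so low a signal was not tested. *Nkx2-1*, which is needed for lung identity and binds surfactant promoters, differed by 0.10 on the log2 scale (limma's adjusted p = 0.72), between signals of 9.42 ± 0.41 (SD, n = 5) and 9.52 ± 0.36 (SD, n = 5). The forkhead factors *Foxa1* and *Foxa2*, which also act in lung epithelium, fell by 0.48 and 0.92, and the GR gene *Nr3c1* was at -0.12 (adjusted p = 0.3 from limma, called lower after quantile normalization).

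**Figure D4:**
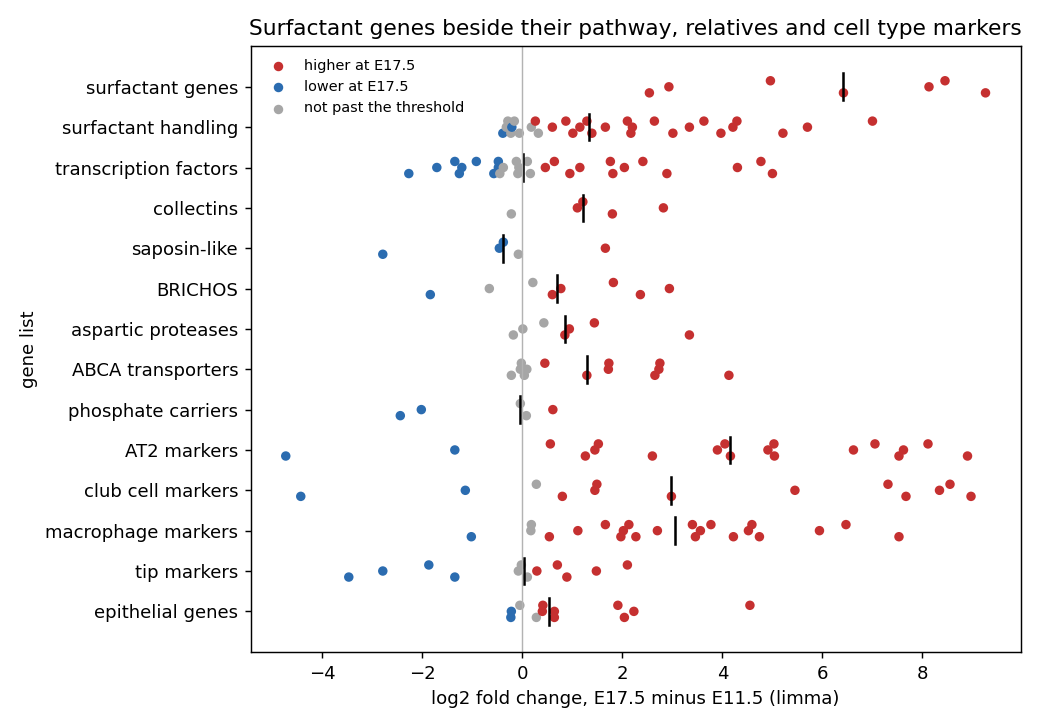
Log2 fold change from E11.5 to E17.5 (x axis) of each gene in the lists named on the y axis, red where higher and blue where lower at an adjusted p under 0.05 in limma, with a black bar at the list's median. The surfactant genes have a median of 6.42, the transcription factors one of 0.01 and the phosphate carriers one of -0.04. Among the phosphate carriers, *Slc34a1* and *Slc34a3* lay below the silent level at both stages.

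Relatives of the surfactant genes by family or domain were set beside them, with no test of the differences in rise. The counts of these small lists stand beside 36.9% higher and 31.5% lower of all genes. Of the other collectins, 4 of 5 measured were higher, with *Mbl1* up by 2.82, *Colec12* by 1.80, *Colec10* by 1.21 and *Colec11* by 1.10, against 8.13 for *Sftpd* and 6.42 for *Sftpa1*. Among 5 genes with a saposin domain like that of SFTPB, *Psap* rose by 1.66, and *Psapl1*, *Manf* and the sphingomyelinase *Smpd1* were lower (-0.38, -0.46 and -2.79). Of 8 genes with a BRICHOS domain, which SFTPC also has, 5 were higher, with *Itm2b* up by 2.94, *Gkn2* by 2.36, *Gkn3* by 1.82 and *Itm2c* by 0.77, and *Tnmd* fell by 1.84. *Itm2a* was the other gene called higher, and was not past the threshold after quantile normalization. The value of *Sftpc* on the same scale was 2.54.

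Of 7 other aspartic proteases, 4 were higher, with *Pgc*, pepsinogen C, up by 3.34, *Bace1* by 1.44, *Ctsd* by 0.94 and *Bace2* by 0.85, against 8.45 for *Napsa*. Of 13 other ABCA transporters, 8 were higher, with *Abca5* up by 4.13, *Abca13* by 2.75, *Abca9* by 2.73 and *Abca8a* by 2.65, beside 2.93 for *Abca3*. *Abca5* rose from 5.78 to 9.91, from a signal nearer to the silent level than that of *Abca3*. The E11.5 signals of *Abca13* (4.67), *Bace2* (4.35) and *Abca8a* (3.55) lay around or below that level. The sizes of these rises thus depend on signal that may be background. The phosphate carriers most like *Slc34a2*, *Slc34a1* and *Slc34a3*, had signals of 4.13 and 4.33 at E11.5 and 4.21 and 4.29 at E17.5, with log2 fold changes of 0.08 (adjusted p = 0.6) and -0.04 (adjusted p = 0.78 from limma). These signals lay below the silent level at both stages, so they do not show an unchanged expression. The phosphate importer *Slc20a1* fell by 2.02 and the exporter *Xpr1* by 2.44 while *Slc34a2* rose by 9.26. At E17.5 *Slc20a1* (4.93) and *Xpr1* (5.07) lay around the silent level, so the size of their falls depends on signal that may be background. *Slc20a2* rose by 0.61, but was not past the threshold after quantile normalization.

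The genes whose profile over the 10 arrays was most like that of each member were found by the root mean square distance of log2 signals, each gene counted from its own E11.5 mean. Nearest to *Slc34a2* were *Lyz1* (distance 0.33) and *Scgb1a1* (0.50), and nearest to *Sftpd* were *Retnla* (0.36) and *Scgb3a2* (0.38). *Napsa* had *Fosb* (0.19) and *Sec14l3* (0.26) nearest, and *Sftpa1* had *Fgf1* (0.15) and *Pnrc1* (0.17). For *Sftpb* these were *Adgrf5* (0.19) and *Elf5* (0.20), which also stand in the lists above. *Sftpc* had *Zmat2* (0.08) and *Adam22* (0.09), and *Abca3* had *Cfap298* (0.10) and *Baiap2* (0.10). By this measure a gene can be near only if its rise is of like size, so nearness does not show a shared course among arrays. *Lyz1* is in the list of AT2 markers above, and *Scgb1a1*, *Scgb3a2* and *Sec14l3* are in that of club cell markers. The other near genes are in neither of these lists.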

How the data were processed

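The authors amplified the RNA with NuGEN kits, hybridised it to Affymetrix mouse arrays and used Bioconductor. Their deposited values are log2 signals between 2.47 and 15.03 for 21204 probe sets on 10 arrays, a scale read from the values. How background and arrays were adjusted, and how these 21204 probe sets were chosen, is not given in the sources used. Medians of the arrays lay between 7.01 and 7.14 (E11.5) or 7.14 and 7.23 (E17.5), and the number of arrays limits the precision. By the platform annotation 17981 probe sets name 1 gene, and those naming several (514) or with none listed (2709) were not used. Where a gene had more than 1 probe set (167 genes), the highest mean over all arrays decided. No filter on dim genes was applied to the deposited values.

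E17.5 minus E11.5 was fitted with limma 3.58.1 in R 4.3.3 (lmFit, eBayes) without covariates over 17813 genes, and the fit was tested on simulated data. Fold changes come from differences of mean log2 signals, and summed signals are log2 of the sum of linear signals. Pairs of genes were tested in scipy 1.17.1. The members, gene lists and motifs were chosen with earlier results of these data known. Besides the 7 members, the genes named are the 4 largest calls of a list, those that went against its majority, small counts and the 2 nearest profiles; further genes, such as *Nkx2-1* and *Nr3c1*, were named after their values were seen. Alternatives were quantile normalization, median centring, moderation with trend and robust, leaving out dim genes, the mean of probe sets, the replicate number as a block, and leaving out each array.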

Additional observations from a re-analysis of the deposited data

Results flagged for a closer look

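In 130 groups of 5 arrays checked (the surfactant genes, the handling genes and the transcription factors at each stage), 10 held an array that stood apart, with a gap to the nearest array above 0.71 of the whole range. About 1 in 20 groups, or 6 here, would be picked out by chance. None of these was a surfactant gene. On E11.5 replicate 1, log2 signals stood apart for *Hps4* (10.84, nearest other array 10.08), *Hps6* (7.88, nearest 7.34), *Anxa7* (7.98, nearest 8.18), *Nkx2-1* (8.73, nearest 9.49), *Wwtr1* (8.54, nearest 8.03) and *Cited2* (10.64, nearest 10.50). On E11.5 replicate 2 this was so for *Dnajb9* (10.95, nearest 10.27) and on E11.5 replicate 3 for *Kcnn4* (5.97, nearest 5.72). On E17.5, *Abcg1* was low on replicate 4 (9.13, nearest 10.44) and *Elf3* high on replicate 1 (10.16, nearest 9.45).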

How the results depend on the processing

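Each of the 7 surfactant genes was called higher under all alternatives run in which it was tested, with log2 fold changes of 2.24 to 2.59 for *Sftpc*, 2.41 to 3.00 for *Abca3*, 4.51 to 5.14 for *Sftpb*, 6.10 to 6.48 for *Sftpa1*, 7.88 to 8.26 for *Sftpd*, 8.27 to 8.57 for *Napsa* and 9.11 to 9.37 for *Slc34a2*. The median log2 fold change of all genes was 0.03 as deposited, -0.04 after quantile normalization and -0.10 after median centring. The replicate numbers do not pair the stages (same-numbered arrays correlated at -0.294 to 0.074 in their deviations), and with the replicate block all 7 genes were higher. Lower handling genes numbered 2 as deposited, 5 after quantile normalization, 1 with the replicate block and 1 to 3 without each array in turn (1 without E17.5 replicate 5). Lower transcription factors numbered 9, and 5 with dim genes left out, where fewer genes are tested. Lower BRICHOS genes numbered 1, and 2 after quantile normalization, and higher phosphate carriers numbered 1 and then 0 (limma). The number of unequal pairs was 18 after quantile normalization and 18 to 19 without each array (19 without E11.5 replicate 5), and 19 with signals held at the silent level, a setting added after seeing the data.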
